A study of Mus musculus with 12 samples.

Results

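TEL-AML1 cells after 5 days with IL7 and FLT3L were set against untreated TEL-AML1 cells. The comparison takes 2 arrays on each side, picked by sample title, which makes 4 of the 12 arrays of the study. The cells are EML1, a mouse blood progenitor line made from marrow of male BDF1 mice with LRARalpha403SN, a retroviral vector for a truncated retinoic acid receptor. All 4 arrays are from EML1 cells that carry TEL-AML1, the fusion of ETV6 and RUNX1 found in childhood B-cell precursor leukaemia, in the lentiviral vector pWPI. The treated cells are those labelled day 5 of IL7 and FLT3L, and the untreated cells carry no treatment in their titles. The remaining arrays hold TEL-AML1 cells at day 7 and cells with the empty pWPI vector at day 5, at day 7 and untreated, 2 each.

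By the growth protocol, differentiation towards B cells was done on OP9, a mouse stromal line, in α-MEM with fetal bovine serum. There 50000 EML1 cells were plated with IL7 at 10 ng/ml, FLT3L at 80 ng/ml and β-mercaptoethanol at 50 µM. Maintenance cultures grew in IMDM with horse serum and a conditioned medium of BHK/MKL cells, and β-mercaptoethanol is not named for them. The titles name only IL7 and FLT3L, and the co-culture with OP9 is known from the protocol alone. The 2 cytokines, the stroma, the medium and the serum then changed together and cannot be told apart. The same holds for the conditioned medium and β-mercaptoethanol, as far as the protocol names them. The labels do not say whether the TEL-AML1 cells are 1 clone, or whether the 2 arrays of a group are separate cultures, so each p-value weighs a difference against array-to-array spread that could be purely technical.

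Interferons act through receptors that switch on a transcription factor complex called ISGF3, which holds IRF9 and STAT2. It binds the interferon-stimulated response element in the promoters of antiviral genes. The same signal raises the machinery that loads peptides on MHC class I, with the immunoproteasome that cuts them and NLRC5, the activator of class I genes. ATF4 answers shortage: when amino acids run low or the endoplasmic reticulum is stressed, it turns on amino acid transporters, enzymes of amino acid synthesis and tRNA synthetases.

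Values are deposited intensities, 1 per probe set and array, and the array medians lay between 68.1 and 72.9. Fold changes are differences of log2(intensity + 16), given ± standard error with n = 2 arrays a group, and they understate the change of dim genes. The limma test was run on 12345 genes, its p-values were adjusted over all of them by the Benjamini-Hochberg method, and a gene passes at an adjusted p below 0.05. The 2 day 5 arrays correlated at 0.986 across genes and the 2 untreated arrays at 0.997. Progenitor markers of EML1 were bright on all 4 arrays: Kit, the receptor of stem cell factor, read 2186 and 2435 on day 5 and 2698 and 2619 in untreated cells, and Cd34 read 1975 and 2221 on day 5 and 2358 and 2431 in untreated cells. Etv6 (1455 and 1619.8 on day 5, 1527 and 1509.8 untreated) and Runx1 (1417 and 1670.2 on day 5, 1370.3 and 1297 untreated) did not pass (adjusted p = 0.966 and 0.402), and whether their probe sets read the fusion was not tested.

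Before the results, 1 difference between the day 5 arrays has to be given. Day 5 replicate 1 held far more RNA of stromal genes than day 5 replicate 2. Fibronectin, Fn1, read 1909.9 and 560.4 on day 5, against 61.2 and 59.6 in untreated cells. The summed intensity of 55 stromal matrix and contractile genes was 24445 and 17211 on day 5, against 14652 and 14418 in untreated cells. Both day 5 arrays lay above both untreated arrays in this sum. Among the 10 defining markers of stroma, Col1a1, Col1a2, Pdgfra and Acta2 were higher on both day 5 arrays, Col3a1 (114.1 and 79.6 on day 5, 79.9 and 66.7 untreated) and Pdgfrb overlapped between the groups (1241 and 1217 on day 5, 1261 and 1169.6 untreated), and Dcn, Lum, Postn and Tagln were too dim to be tested. In all, 79 genes stood more than 1 log2 unit higher on day 5 replicate 1 than on day 5 replicate 2, 18 of them from the stromal list, and 11 genes the other way. In arrays of mixed RNA, more cells of a type and more RNA per cell cannot be told apart.

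At day 5, 197 of 12345 genes passed (1.6%), 144 higher (1.17%) and 53 lower (0.429%). Of these, 61 were higher and 6 lower by more than 2-fold, and 19 were higher by more than 4-fold. All 197 had both day 5 arrays on 1 side of both untreated arrays, which is also true, in the higher direction, of 30.1% of all tested genes and, in the lower direction, of 21.6%. Among the 20 largest increases that passed, 16 were genes of an interferon list. The stromal genes Fn1 and Bgn had folds in the same range and did not pass. The count rests on few arrays: it was 88 without day 5 replicate 1 and 290 without day 5 replicate 2, 79 without untreated replicate 1 and 85 without untreated replicate 2. It was 89 with each array's stromal level as a covariate, and 897 with a replicate block that pairs same-numbered arrays of the 2 vectors. Of the 144 higher genes, 71 passed when either day 5 array was left out, and of the 53 lower genes, 13.

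**Figure D1:**
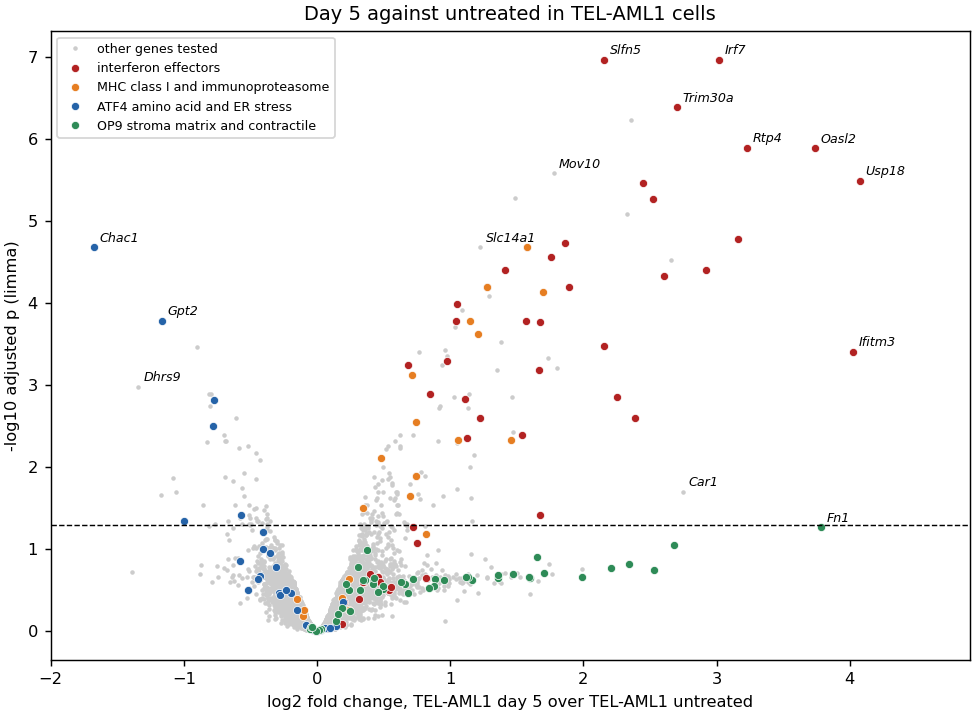
Each point is a gene, placed by its log2 fold change of day 5 over untreated TEL-AML1 cells (x axis) and by -log10 of the adjusted p from limma (y axis). The dashed line marks an adjusted p of 0.05. Genes of the interferon list (red) fill the upper right, genes of the MHC class I list (orange, also where a gene is in both) lie left of them, genes of the ATF4 list (blue) lead the left side, and stromal genes (green) reach a log2 fold change of 3.79 without crossing the line.

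**Figure D2:**
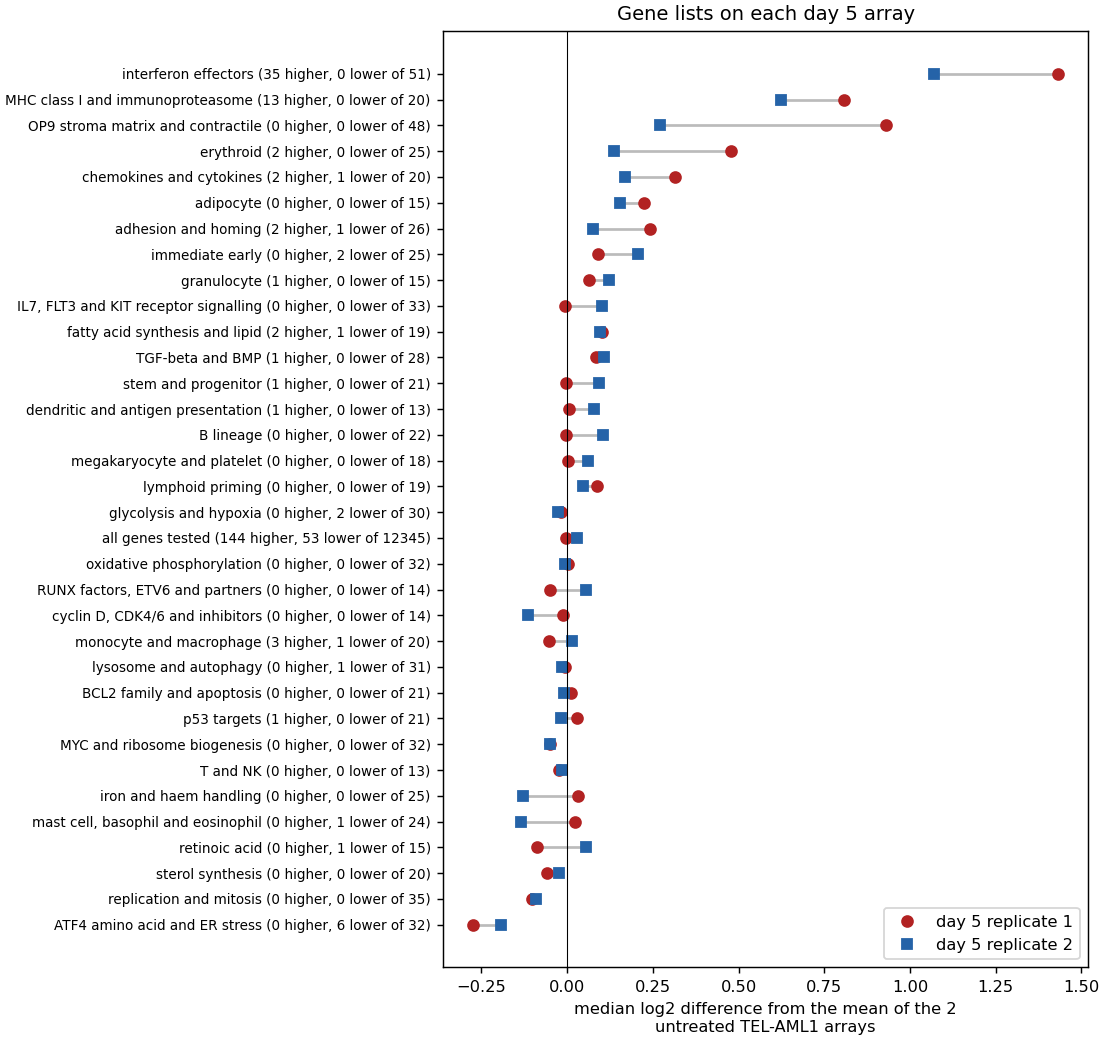
For each of 33 gene lists and for all tested genes, the median log2 difference between 1 day 5 array and the mean of the 2 untreated TEL-AML1 arrays, with day 5 replicate 1 as circles and replicate 2 as squares. Row labels give the genes that passed. Interferon genes had medians of 1.43 and 1.07 on the 2 arrays, and stromal genes 0.93 and 0.27.

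Interferon-stimulated genes had the most calls of the 33 lists. Of 64 listed genes, 54 had a probe set, 51 were bright enough to test, and 35 rose at day 5, against a background of 1.17% of all genes. None fell, by limma, and none was lower at an unadjusted p under 0.05 either, a level that 9.96% of all genes reached on the higher side and 4.83% on the lower. The intensity filter of 59.9 was set on the mean over all 12 arrays, so a dim gene could enter through its treated arrays. Ifit1 (50.1 and 50.7 in untreated TEL-AML1 cells) and Cmpk2 (52.1 and 47.1) lay below it on every untreated array of both vectors. Such genes were tested only because they were higher after treatment, which favours calls on the higher side. The median log2 fold change of the 51 genes was 1.28, against 0.01 over all genes. The 35 genes that rose had a median of 1.97 on day 5 replicate 1 and 1.67 on replicate 2. For 30 of them the 2 day 5 arrays lay within 0.5 log2 units of each other, and 2, Ifitm3 and Ifit3, differed between them by more than 1. The count was 32 without day 5 replicate 1, 37 without replicate 2, 32 and 33 without either untreated array, and 31 with the stromal level as a covariate.

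The regulators of the pathway come first. Irf7, the transcription factor that amplifies type I interferon production, read 895 and 769.8 on day 5, against 94.3 and 82.4 in untreated cells. The 2 arrays of each group were close together and the groups lay far apart (3.02 ± 0.10, adjusted p = 1.07e-07). Irf9, the DNA-binding part of ISGF3, read 747 and 713 on day 5 and 359 and 328 in untreated cells (1.05 ± 0.087, adjusted p = 0.000102). Its partner Stat2 was also higher on both day 5 arrays, at 403 and 303 against 207 and 204, and missed the threshold (0.72 ± 0.16, adjusted p = 0.0535). Usp18, the protease that removes ISG15 from proteins and restrains signalling at the interferon receptor, had the largest increase of all tested genes. It read 1792 and 1379.9 on day 5, against 75.9 and 80.7 in untreated cells (4.07 ± 0.21, adjusted p = 3.2e-06), 16.8-fold on the offset scale. Irf1, a factor that interferon gamma induces strongly, read 210.3 and 262 on day 5 and 168 and 180.1 in untreated cells and did not pass (0.40 ± 0.13, adjusted p = 0.203).

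Several sensors of viral RNA and enzymes that act with them rose too. Dhx58 encodes LGP2, a helicase that tunes RNA sensing, and it read 540.4 and 417 on day 5, against 68.3 and 70.4 in untreated cells (2.52 ± 0.14). Ddx58, the sensor RIG-I, read 722 and 608 on day 5, against 135 and 138 in untreated cells (2.15 ± 0.21). Both genes were several times higher on each day 5 array, with adjusted p = 5.37e-06 and 0.000336. The related sensor Ifih1 (MDA5) read 110.4 and 72.5 on day 5 and 60.6 and 60.1 in untreated cells, with its higher value on the stroma-rich array, and did not pass (adjusted p = 0.252). Oas2 and Oas3, which make the 2-5A messenger that switches on RNase L, rose by 2.39 ± 0.31 and 1.89 ± 0.15 (adjusted p = 0.00249 and 6.29e-05). Oasl2, a related protein, read 1183 and 886 on day 5, against 60.2 and 63.9 in untreated cells (3.74 ± 0.17, adjusted p = 1.29e-06). Eif2ak2, the kinase PKR that halts translation on viral RNA (1.04 ± 0.092), and Adar, which edits double-stranded RNA (0.97 ± 0.10), passed with smaller changes (adjusted p = 0.000163 and 0.0005).

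Several proteins that block virus entry or replication also rose. Ifit1, which holds RNA ends that lack the host's cap mark, read 682 and 489.8 on day 5, against 50.1 and 50.7 in untreated cells (3.16 ± 0.20, adjusted p = 1.63e-05). Ifitm3, which stops viruses in endosomes, read 1736 and 606 on day 5, against 41.3 and 56.0 in untreated cells (4.02 ± 0.40, adjusted p = 0.000391). Its 2 day 5 arrays lay far apart, with the higher value on the stroma-rich array, and without that array the fold was 3.28 (adjusted p = 0.000385). Ifit3 behaved alike and more weakly, at 349 and 135 on day 5 against 61.0 and 54.4 in untreated cells (1.67 ± 0.34, adjusted p = 0.0384), and its call ended without day 5 replicate 1 or either untreated array (up to 0.308). Ifitm1 (1847 and 2107 on day 5, 2047 and 1905 untreated) and Ifitm2 (2319 and 2308 on day 5, 2317 and 2326 untreated), neighbours of Ifitm3 in the same family, were bright in all 4 arrays and their groups overlapped. Rsad2, the radical enzyme viperin (1.11 ± 0.13), Mx2, a dynamin-like GTPase (1.22 ± 0.16), and Bst2, tetherin, which holds budding virus at the membrane (1.41 ± 0.10), passed with adjusted p = 0.00148, 0.00254 and 3.89e-05. Mx1 (81.8 and 74.3 on day 5, 56.1 and 59.6 untreated, adjusted p = 0.253) did not. Isg15, Ifit2 and Gbp2 were below the intensity filter and were not tested: Isg15 read 60.1 and 59.3 on day 5, against 46.8 and 37.7 in untreated cells.

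Several less known members moved as much. Rtp4, a chaperone of membrane receptors, read 726 and 689 on day 5, against 68.2 and 54.7 in untreated cells (3.23 ± 0.14, adjusted p = 1.26e-06). Trim30a, a RING-finger protein that restrains inflammatory signalling, read 1496 and 1524 on day 5, against 218 and 219 in untreated cells (2.70 ± 0.10, adjusted p = 4.04e-07). Its 2 day 5 arrays were nearly equal. So were those of Slfn5, a Schlafen protein, at 449.7 and 459 on day 5 against 85.6 and 93.1 in untreated cells (2.16 ± 0.068, adjusted p = 1.07e-07). Lgals3bp, a secreted partner of galectin 3 (2.92 ± 0.21), Ifi203, of the nucleic acid binding HIN-200 family (2.61 ± 0.19), Xaf1, a partner of the apoptosis inhibitor XIAP (2.45 ± 0.13), and Parp14, an ADP-ribosyltransferase (1.86 ± 0.12), rose too (adjusted p from 3.42e-06 to 4.6e-05). Cmpk2, a mitochondrial nucleotide kinase, read 379 and 230.0 on day 5, against 52.1 and 47.1 in untreated cells (2.25 ± 0.27, adjusted p = 0.00138). Members of the Ifit, Ifitm, Oas, Slfn, Trim30 and H2 families have close relatives, and how far their probe sets share signal was not tested.

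**Figure D3:**
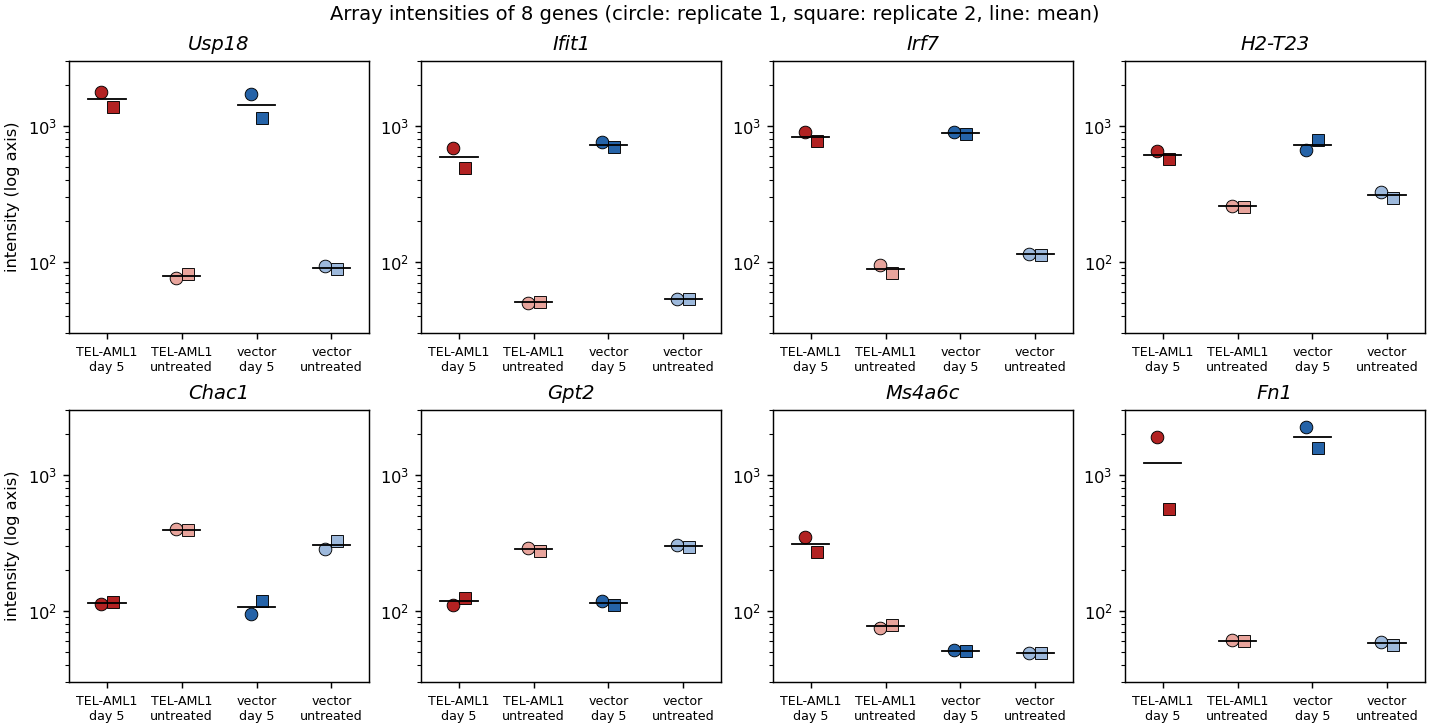
Deposited intensity (log axis) of 8 genes on each day 5 array and untreated array of TEL-AML1 cells (reds) and of empty-vector cells (blues), with circles for replicate 1, squares for replicate 2 and lines for the mean of 2 arrays. Usp18, Ifit1, Irf7 and H2-T23 are higher at day 5 with both vectors, Chac1 and Gpt2 lower, Ms4a6c higher with TEL-AML1, and Fn1 differs between the 2 TEL-AML1 day 5 arrays (1909.9 and 560.4).

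The promoters of these genes are shown because the response element can be read in them. The windows run from 250 bases before to 50 bases after the annotated start of the gene, are taken from RefSeq on GRCm38.p6 and are printed on the gene's strand, 5′ to 3′. Capitals mark the core of the interferon-stimulated response element, GAAA, any 2 bases and GAAA again, or its reverse complement.
Ifitm3, chr7:141010695-141010994, minus strand: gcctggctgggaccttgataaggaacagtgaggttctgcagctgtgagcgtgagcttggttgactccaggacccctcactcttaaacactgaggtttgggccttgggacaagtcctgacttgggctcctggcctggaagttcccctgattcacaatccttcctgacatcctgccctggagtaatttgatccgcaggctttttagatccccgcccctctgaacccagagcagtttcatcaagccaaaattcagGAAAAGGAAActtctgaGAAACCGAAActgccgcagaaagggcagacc
Ifit1, chr19:34640639-34640938, plus strand: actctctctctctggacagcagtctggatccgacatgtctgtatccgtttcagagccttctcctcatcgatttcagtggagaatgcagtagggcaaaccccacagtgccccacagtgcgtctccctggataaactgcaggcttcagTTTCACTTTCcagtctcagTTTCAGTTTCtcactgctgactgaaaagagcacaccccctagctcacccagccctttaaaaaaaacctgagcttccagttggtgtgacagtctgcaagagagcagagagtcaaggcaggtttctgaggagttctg
Trim30a, chr7:104465144-104465443, minus strand: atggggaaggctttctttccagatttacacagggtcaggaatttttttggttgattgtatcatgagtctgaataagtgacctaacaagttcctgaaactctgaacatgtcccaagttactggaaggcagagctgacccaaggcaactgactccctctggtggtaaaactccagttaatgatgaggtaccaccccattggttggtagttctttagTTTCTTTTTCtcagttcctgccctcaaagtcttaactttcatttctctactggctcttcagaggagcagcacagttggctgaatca
H2-T23, chr17:36032652-36032951, minus strand: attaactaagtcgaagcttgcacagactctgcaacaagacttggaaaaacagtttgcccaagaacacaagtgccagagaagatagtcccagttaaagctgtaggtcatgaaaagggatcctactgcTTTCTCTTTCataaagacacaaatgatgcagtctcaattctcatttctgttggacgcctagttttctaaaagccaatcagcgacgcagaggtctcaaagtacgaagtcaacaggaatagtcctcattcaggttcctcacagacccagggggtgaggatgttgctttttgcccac
The first 3 have the largest folds among interferon genes that rose, have an entry in the promoter table and hold the element, and H2-T23 the largest among such genes of the MHC class I list alone. Usp18, Oasl2, Rtp4 and Tap1 were not searched. Ifit1 has 2 copies, which begin 104 and 85 bases before the start, and Trim30a has 1 in 1 of its 2 annotated windows, 36 bases before. In H2-T23 the single copy begins 124 bases before the start. In Ifitm3 both copies lie just inside the gene and begin 2 and 19 bases after the start.

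The element was found in 13 of 28 promoters (46.4%) of the interferon genes that rose, those with an entry in the promoter table. It was also found in 6 of 11 promoters (54.5%) of the interferon genes that were tested and did not pass, Stat2, Ifih1, Oas1a, Cxcl10, Gbp3 and Ifitm2. Among genes that rose and stand in neither the interferon nor the MHC class I list, 14 of 76 promoters held it (18.4%), and among genes that fell, 0 of 41. Over all 9879 tested genes with an entry the share was 3.43%, and over all 27025 entries 3.99%. A match describes letters in a window and not a bound site.

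Genes of antigen presentation on MHC class I rose with the interferon genes. Of 24 listed genes 20 were tested, and 13 rose, against a background of 1.17%, with a median log2 fold change of 0.73 over the 20. Of the 13, Psmb8, Psmb9 and Tap1 are also among the 35 interferon genes, so that 45 genes rose in either list. None fell, by limma, and none was lower at an unadjusted p under 0.05, against 0.429% and 4.83% of all genes. The list's medians on day 5 replicates 1 and 2 were 0.81 and 0.62. Nlrc5, the activator of class I genes, read 261 and 273 on day 5, against 106 and 117 in untreated cells (1.15 ± 0.10, adjusted p = 0.000163). Both day 5 arrays were more than double either untreated array. Tap1, which carries peptides into the endoplasmic reticulum, read 548 and 487 on day 5, against 159.7 and 164 in untreated cells (1.58 ± 0.11, adjusted p = 2.07e-05), and its partner Tap2 changed less (0.75 ± 0.10, adjusted p = 0.00279). Tapbp, tapasin, which docks class I molecules to this transporter, read 965 and 984 on day 5, against 453 and 464 in untreated cells (1.06 ± 0.15, adjusted p = 0.00468, up to 0.0612 without untreated replicate 1).

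The catalytic subunits of the immunoproteasome rose together. Psmb9 read 461 and 367 on day 5, against 163 and 159 in untreated cells (1.28 ± 0.10, adjusted p = 6.29e-05). Psmb8 (0.74 ± 0.12) and Psmb10 (0.70 ± 0.13) changed less, and their calls ended without day 5 replicate 1 or without either untreated array (adjusted p up to 0.137 and 0.201). Psme1, part of the proteasome activator PA28, rose by 0.71 ± 0.078 (adjusted p = 0.000755). Among the class I molecules, H2-T23, the Qa-1 gene, whose promoter is printed above, read 655 and 573 on day 5, against 256 and 254 in untreated cells (1.21 ± 0.11, adjusted p = 0.000239). H2-T24 rose by 1.69 ± 0.13 and H2-K1, a classical class I gene, by 1.46 ± 0.21 (adjusted p = 7.22e-05 and 0.00468, H2-K1 up to 0.0659 without day 5 replicate 1 or untreated replicate 2). B2m, the light chain they share, was already bright and read 4292 and 4392 on day 5, against 3364 and 3466 in untreated cells (0.35 ± 0.066, adjusted p = 0.0314), and leaving out any single array of the 4 ended its call (up to 0.278). The list's count was 8 without day 5 replicate 1, 12 without replicate 2, 8 without either untreated array and 6 with the stromal level as a covariate. MHC class II genes are regulated apart from these, and H2-Ab1 (46.0 and 45.6 on day 5, 52.6 and 48.7 untreated) and Cd74 (57.9 and 60.2 on day 5, 61.5 and 62.5 untreated) were below the intensity filter.

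Outside both lists, 99 genes rose, with a median log2 fold change of 0.60. The genes named in this paragraph were picked after their values were seen, apart from Isg20, Sp100, Mov10, Trim30d and Tnfsf10, which the fixed rule names. Isg20, an RNA exonuclease, read 1482 and 1283 on day 5, against 248 and 263 in untreated cells (2.36 ± 0.10, adjusted p = 5.74e-07). Sp100 (2.33 ± 0.14) and Pml (1.09 ± 0.093), the core proteins of nuclear bodies, rose on both day 5 arrays, with adjusted p = 8.11e-06 and 0.000122. Mov10, a helicase active against retroelements, read 818 and 801 on day 5, against 218 and 232 in untreated cells (1.78 ± 0.088, adjusted p = 2.6e-06). Uba7, the enzyme that activates ISG15 (1.29 ± 0.10), Helz2 (1.48 ± 0.082), Rnf213 (1.73 ± 0.18), Trim30d (2.66 ± 0.19) and Trim34a (1.38 ± 0.13) were also higher (adjusted p from 5.16e-06 to 0.000467). Ube2l6, the enzyme that hands ISG15 on, read 349 and 171 on day 5, against 107 and 94.2 in untreated cells, and passed (adjusted p = 0.0459), but not without day 5 replicate 1, without either untreated array (up to 0.365) or with quantile normalization. Tnfsf10, the death ligand TRAIL, read 205 and 254 on day 5, against 92.3 and 92.2 in untreated cells (1.18 ± 0.18, adjusted p = 0.00703, up to 0.0773 without either untreated array).

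Other genes that rose belong to no antiviral group. Ms4a6c and Ms4a6b, membrane proteins of the MS4A family that monocytes carry, were picked by the fixed rule. Ms4a6c read 349 and 272 on day 5, against 75.2 and 79.2 in untreated cells (1.80 ± 0.19, adjusted p = 0.000616). Ms4a6b read 218 and 156 on day 5, against 52.9 and 60.2 in untreated cells (1.47 ± 0.20, adjusted p = 0.00373, up to 0.0565 without untreated replicate 1). Of the 6 monocyte and macrophage markers, Csf1r read 61.9 and 69.1 on day 5 and 66.9 and 59.4 in untreated cells (adjusted p = 0.885), and Cd14 was below the filter. Cd68, a lysosomal marker of macrophages, fell, at 147 and 145 on day 5 against 205 and 189 in untreated cells (-0.40 ± 0.077, adjusted p = 0.0328). Its call ended without any single array of the 4. Adgre1 was also lower, at 60.4 and 62.4 on day 5 against 66.3 and 81.6 in untreated cells. Lyz2 was higher without overlap, at 136.4 and 143.4 on day 5 against 85.9 and 99.6 in untreated cells, and did not pass (adjusted p = 0.3). With Ccr2, which rose, the 6 summed to 804 and 816 on day 5 and 670 and 691 in untreated cells. Over the monocyte and macrophage list 3 of 20 tested genes rose, with Ccr2 the other one, and 1 fell, against 1.17% and 0.429% of all genes. Slc14a1, a urea transporter, read 1202 and 1099.8 on day 5, against 490.3 and 476 in untreated cells (1.22 ± 0.081, adjusted p = 2.07e-05). Abcg1, which exports cholesterol, read 586 and 618 on day 5, against 289.9 and 282 in untreated cells (1.03 ± 0.094, adjusted p = 0.000193). Angpt1, the ligand of the TIE2 receptor, read 470.5 and 401 on day 5, against 194 and 210.4 in untreated cells (1.05 ± 0.18, adjusted p = 0.0183, up to 0.186 without day 5 replicate 1 or either untreated array). Ms4a6c, Ms4a6b, Slc14a1, Abcg1 and Angpt1 stood higher on both day 5 arrays than on either untreated array.

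Red cell genes were higher on day 5 replicate 1 than on replicate 2. Car1, carbonic anhydrase 1, read 2238 and 1113 on day 5, against 205 and 238 in untreated cells (2.75 ± 0.49, adjusted p = 0.0199, and up to 0.186 without day 5 replicate 1 or either untreated array). Both day 5 arrays were several times above both untreated arrays. Zfpm1, the GATA1 partner FOG1, was the other of 25 tested erythroid genes to pass (0.44 ± 0.076, adjusted p = 0.0174, up to 0.225 without day 5 replicate 1 or either untreated array). Gata1 read 490.0 and 282 on day 5 and 238 and 239 in untreated cells, and Klf1, a factor of late red cell genes, 244 and 82.9 on day 5 and 55.3 and 59.2 in untreated cells. Neither passed (adjusted p = 0.181 and 0.199), and in both the high value was that of replicate 1. The erythroid list, with 2 of 25 genes called higher against 1.17% of all genes, had a median of 0.48 on replicate 1 and 0.14 on replicate 2. Over all tested genes the medians on replicates 1 and 2 were -0.0035 and 0.028. The mast cell genes Hdc (954 and 417 on day 5, 536 and 521 untreated) and Ms4a2 (454 and 187 on day 5, 188 and 201 untreated) also stood apart on replicate 1 and did not pass. The mast cell list as a whole did not follow them: the medians of its 24 tested genes were 0.02 on replicate 1 and -0.13 on replicate 2. At an unadjusted p under 0.05, 0 were higher and 5 lower, against 9.96% and 4.83% of all genes. The part of the stromal RNA in the differences between the 2 day 5 arrays was not tested.

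Among the genes that fell, those of amino acid supply led. Of 37 listed ATF4 and ER stress genes 32 were tested. At day 5, 6 fell and none rose, by limma, against backgrounds of 0.429% and 1.17%. At an unadjusted p under 0.05, 15 were lower and none higher, against 4.83% and 9.96% of all genes. The median log2 fold change was -0.26, with -0.28 on day 5 replicate 1 and -0.19 on replicate 2. The number that fell was 4 without day 5 replicate 1, 5 without replicate 2, 3 and 4 without either untreated array, and 4 with the stromal level as a covariate.

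Chac1, which breaks down glutathione, had the largest decrease of all tested genes. It read 111 and 116 on day 5, against 402 and 392 in untreated cells (-1.67 ± 0.11, adjusted p = 2.07e-05). Both pairs of arrays were tight, and the call held without any 1 of the 4 arrays (adjusted p up to 0.000814). Gpt2, a mitochondrial alanine aminotransferase, read 111 and 124 on day 5, against 292 and 274 in untreated cells (-1.16 ± 0.10, adjusted p = 0.000163). Mthfd2, of the mitochondrial folate pathway, read 457 and 489.7 on day 5, against 806 and 832 in untreated cells (-0.77 ± 0.093, adjusted p = 0.0015). Slc1a4, a carrier of neutral amino acids, fell by 0.78 ± 0.10 on the log2 scale (adjusted p = 0.00318, up to 0.0565 without untreated replicate 1). Psat1, of serine synthesis, read 1004 and 1111 on day 5, against 1591 and 1568 in untreated cells (-0.57 ± 0.11, adjusted p = 0.038). Slc7a11, the cystine importer, read 72.4 and 68.6 on day 5, against 152 and 162 in untreated cells (-0.999 ± 0.21, adjusted p = 0.0459). The call of Slc7a11 ended without any 1 of the 4 arrays (adjusted p up to 0.346), and that of Psat1 without day 5 replicate 1 or either untreated array (up to 0.271). Both calls also ended with quantile normalization.

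Members that did not pass lay mostly on the lower side. Atf4 itself read 478 and 523 on day 5, against 646 and 691 in untreated cells (-0.41 ± 0.091, adjusted p = 0.0615). Asns, asparagine synthetase, read 2286 and 1939 on day 5, against 2975 and 3056 in untreated cells (-0.52 ± 0.22, adjusted p = 0.318), and Slc7a5, the leucine carrier, 1742 and 1925 on day 5 against 2879 and 2617 in untreated cells (-0.58 ± 0.16, adjusted p = 0.14). For all 3 the day 5 arrays lay below both untreated arrays. Outside the list, 3 cytosolic tRNA synthetase genes that fell are named here, while 0.429% of all genes fell. The first was named by the fixed rule and the others were picked after their values were seen. The synthetase genes were not counted as a family, so no share of them is given. Cars, for cysteine, read 253 and 276 on day 5, against 443 and 432 in untreated cells (-0.70 ± 0.10, adjusted p = 0.00402). Nars, for asparagine (-0.61 ± 0.12), and Lars, for leucine (-0.51 ± 0.11), fell too. The call of Cars ended without day 5 replicate 1 or untreated replicate 1 (adjusted p up to 0.06), and those of Nars and Lars without day 5 replicate 1 or either untreated array (up to 0.221 and 0.341).

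For the 2 members of this list with the largest decreases that hold an ATF4 element, the promoter windows follow, from the same table and build. Capitals mark TGATGNAA or its reverse complement TTNCATCA, the composite element that ATF4 binds with C/EBP proteins.
Chac1, chr2:119350992-119351291, plus strand: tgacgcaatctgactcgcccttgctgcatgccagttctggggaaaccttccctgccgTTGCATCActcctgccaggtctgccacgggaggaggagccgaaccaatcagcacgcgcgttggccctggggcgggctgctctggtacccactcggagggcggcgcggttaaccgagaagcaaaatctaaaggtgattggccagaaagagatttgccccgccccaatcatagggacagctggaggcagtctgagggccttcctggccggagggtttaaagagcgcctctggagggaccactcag
Slc7a11, chr3:50443564-50443863, minus strand: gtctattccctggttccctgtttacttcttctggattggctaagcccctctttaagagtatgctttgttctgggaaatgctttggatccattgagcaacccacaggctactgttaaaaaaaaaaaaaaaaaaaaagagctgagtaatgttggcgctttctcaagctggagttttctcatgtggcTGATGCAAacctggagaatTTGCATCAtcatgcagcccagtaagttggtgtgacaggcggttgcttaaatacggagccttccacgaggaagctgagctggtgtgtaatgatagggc
The element in Chac1 begins 193 bases before the start. Slc7a11 has 2, in opposite directions, which begin 66 and 47 bases before the start. It was found in 3 of 6 promoters of the genes on the list that fell (Chac1, Slc1a4 and Slc7a11), in 6 of 23 of those tested that did not pass (26.1%), in 3 of 35 of the genes that fell outside the list (8.57%) and in 2.77% of the promoters of all tested genes. Among genes that rose it was in 7.14% of the interferon promoters and 6.58% of those in neither the interferon nor the MHC class I list. The 2 elements were searched separately on both strands.

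The remaining genes that fell are of mixed function. Dhrs9, an oxidoreductase that can act on retinoids, read 135 and 163 on day 5, against 401 and 403 in untreated cells (-1.35 ± 0.15, adjusted p = 0.00104). Ero1a, which forms disulfide bonds in the endoplasmic reticulum, read 1107 and 947 on day 5, against 1794 and 1786 in untreated cells (-0.80 ± 0.093, adjusted p = 0.00128). Pfkp, a phosphofructokinase of glycolysis, read 178 and 169 on day 5, against 314 and 326 in untreated cells (-0.83 ± 0.12, adjusted p = 0.00492, up to 0.0699 without either untreated array). Ero1a and Pfkp were the 2 of 30 tested glycolysis and hypoxia genes that fell, against 0.429% of all genes. Cd69, a membrane protein of activated lymphocytes, read 369 and 591 on day 5, against 1018 and 965 in untreated cells (-1.06 ± 0.19, adjusted p = 0.0199, and up to 0.186 without day 5 replicate 1 or either untreated array). Il6 read 591 and 566 on day 5, against 957 and 1039 in untreated cells (-0.77 ± 0.16, adjusted p = 0.0489), and its call ended without any 1 of the 4 arrays. Dusp2, a phosphatase that switches off MAP kinases (-0.68 ± 0.10, adjusted p = 0.00483), and Zfp36, which destabilises cytokine mRNA (-0.67 ± 0.14, adjusted p = 0.0459), fell too. They were the 2 of 25 tested immediate early genes to do so, against 0.429% of all genes. Both calls ended without day 5 replicate 1 or untreated replicate 2 (adjusted p up to 0.0706 and 0.438), and that of Dusp2 without untreated replicate 1 too. Egr1, another gene of that list, read 291 and 345 on day 5, against 884 and 828 in untreated cells, without overlap, but did not pass (-1.39 ± 0.44, adjusted p = 0.192).

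Genes of the B lineage, towards which the treatment is meant to lead, did not pass at day 5. Of 22 tested members 0 passed by limma in either direction, against 1.6% of all genes, so a count of 0 says little for a list of this size. At an unadjusted p under 0.05, 5 were higher and none lower, against 9.96% and 4.83% of all genes. Dntt adds bases at antigen receptor joints in lymphoid precursors. It read 50.7 and 48.5 on day 5 and 46.4 and 48.8 in untreated cells (0.04 ± 0.21, adjusted p = 0.965 by limma). These values all lay below the intensity filter of 59.9, and the gene was tested only because empty-vector arrays lifted its mean. Whether it changed within such dim signal cannot be read. Pax5 (54.9 and 63.9 on day 5, 68.1 and 60.2 untreated), Vpreb1 (67.1 and 82.1 on day 5, 80.4 and 68.9 untreated) and Igll1 (64.8 and 71.3 on day 5, 62.9 and 69.1 untreated), the commitment factor and the surrogate light chains, were near the intensity filter of 59.9 and their groups overlapped. Ebf1, a factor of early B cells, read 199.8 and 76.8 on day 5, against 49.1 and 47.6 in untreated cells (1.14 ± 0.43, adjusted p = 0.254). Its higher value was on day 5 replicate 1, the array with more stromal RNA, whose part in it was not tested. Lymphoid priming genes had 0 of 19 called by limma, with 3 higher and 0 lower at an unadjusted p under 0.05, against the same shares of all genes.

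The receptors and signalling genes of the added cytokines gave no call either. In the list of IL7, FLT3 and KIT receptor signalling, 0 of 33 tested genes passed by limma. Of all genes 1.6% passed, so a count of 0 says little for a list of this size. At an unadjusted p under 0.05, 7 were higher and 4 lower, against 9.96% and 4.83% of all genes. Il7r read 64.7 and 53.7 on day 5 and 55.8 and 60.6 in untreated cells (adjusted p = 0.993), and Flt3, at 50.7 and 52.5 on day 5 and 55.9 and 53.2 in untreated cells, was below the filter. Pim1, a kinase gene downstream of STAT5, read 468 and 730.5 on day 5, against 374 and 379 in untreated cells (0.62 ± 0.21, adjusted p = 0.218). Its higher value was on the array with less stroma. Cish, a feedback inhibitor that STAT5 induces, read 69.7 and 73.1 on day 5 and 63.0 and 68.8 in untreated cells (adjusted p = 0.596). Among the TGF-beta and BMP genes only Smad3, a signal transducer, passed of 28 tested, at 237 and 222 on day 5 against 149 and 145 in untreated cells (0.59 ± 0.10, adjusted p = 0.0199, up to 0.204 without day 5 replicate 1 or either untreated array). For this 1 call of 28, the share of all genes that rose was 1.17%. Replication and mitosis genes had 0 of 35 called by limma, against 1.6% of all genes, and a median of -0.12. None was higher and 7 were lower at an unadjusted p under 0.05, against 9.96% and 4.83% of all genes.

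The remaining lists had at most 3 calls each. Of all genes 1.17% rose and 0.429% fell, so a single call or none says little for lists of this size. Of the stem and progenitor genes, Angpt1 was the 1 of 21 that rose, and of the granulocyte genes, Pglyrp1, which binds bacterial cell wall, was the 1 of 15. Bst2 was the 1 of 13 in the dendritic cell list. Gadd45a, a stress response gene, was the 1 of 21 p53 targets that rose. Tpsab1, a mast cell tryptase, was the 1 of 24 mast cell genes that fell. Atp6v1a, a subunit of the proton pump that acidifies lysosomes, was the 1 of 31 lysosome genes, and Dhrs9 the 1 of 15 retinoic acid genes. In the list of adhesion and homing, Ccr2 and Icam2 rose and Itga6, an integrin that binds laminin, fell, of 26 tested. Of 20 chemokine and cytokine genes, Ccl7 and Tnfsf10 rose and Il6 fell. Of 19 lipid genes, Abcg1 and Mylip, which targets the LDL receptor for degradation, rose and Cpt1a, which carries fatty acids into mitochondria, fell. Of the calls in this group of lists, those of Bst2, Dhrs9 and Abcg1 held without any single array of the 4, and each of the others ended without at least 1 of them. By limma no gene passed in the megakaryocyte, T and NK, adipocyte, cyclin D, BCL2 family, sterol, MYC, oxidative phosphorylation, iron and RUNX lists. At an unadjusted p under 0.05, sterol synthesis had none higher and 4 lower of 20, iron and haem handling 3 higher and 8 lower of 25, and each other list of these at most 3 in a direction. The shares over all genes were 9.96% higher and 4.83% lower.

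The stromal list itself had no gene past the threshold. By limma 0 of 48 tested genes passed, against 1.6% of all genes. At an unadjusted p under 0.05, 36 were higher and none lower, against 9.96% and 4.83% of all genes. The median log2 fold change was 0.56. In Fn1 the fold was 3.79 ± 0.82 (adjusted p = 0.0541). Bgn, the proteoglycan biglycan, read 884 and 257 on day 5, against 62.2 and 60.7 in untreated cells (2.68 ± 0.65, adjusted p = 0.0892), and Cxcl12, the chemokine that holds progenitors in the marrow, 706 and 221 on day 5 against 67.9 and 63.5 in untreated cells (2.34 ± 0.67, adjusted p = 0.153). Col1a1, a chain of type I collagen, read 571 and 172 on day 5, against 99.1 and 88.8 in untreated cells (1.60 ± 0.55, adjusted p = 0.225). In all 4 genes the untreated arrays were close to each other, both day 5 arrays were above them, and replicate 1 was more than 3 times replicate 2. Over the 48 genes the median log2 difference from the untreated mean was 0.93 on replicate 1 and 0.27 on replicate 2.

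**Figure D4:**
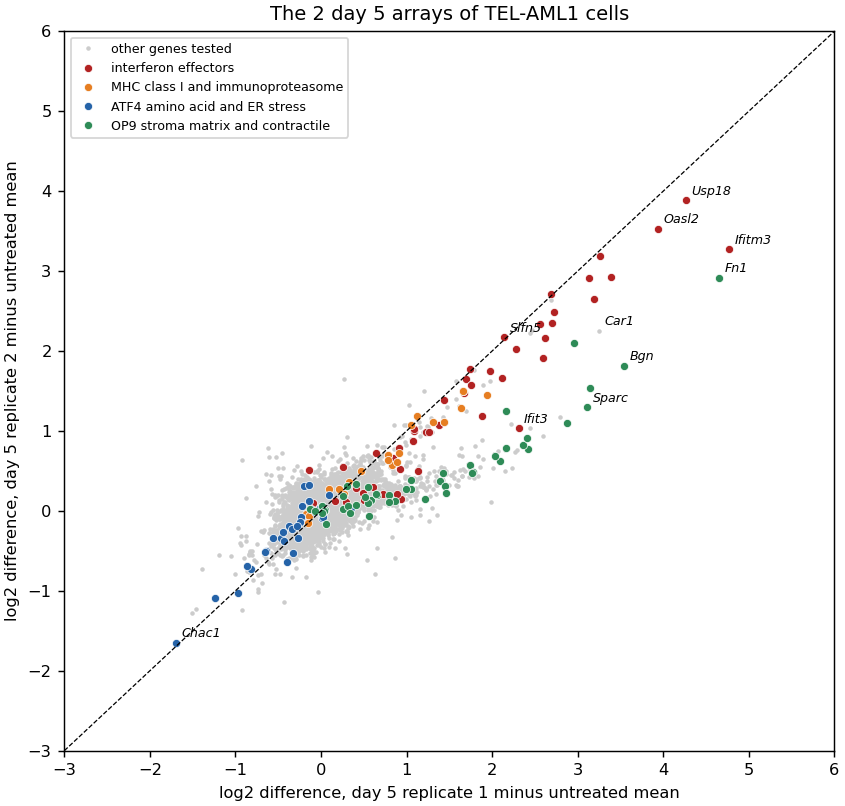
Each point is a gene, placed by its log2 difference from the mean of the untreated TEL-AML1 arrays on day 5 replicate 1 (x axis) and on day 5 replicate 2 (y axis), with the dashed line at equality. Interferon genes (red) run close to the line, with Ifitm3 and Ifit3 to its right, ATF4 genes (blue) follow it on the lower side, and stromal genes (green) form a branch well below it, where Fn1 reaches 4.66 on replicate 1 and 2.92 on replicate 2.

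Cells with the empty vector went through the same treatment, and their arrays give a separate set of values for the same genes, from the same fit with its shared spread. They are not wholly apart from the TEL-AML1 arrays: differences between replicates 1 and 2 correlated between the vectors, at 0.543 on day 5 and 0.432 in untreated cells. At day 5, 15.6% of genes passed with the empty vector, 8.4% higher and 7.15% lower. Of the 144 genes that rose with TEL-AML1, 140 were higher with the empty vector too and 116 passed there (80.6%), and these 116 are 11.2% of the genes that rose with the empty vector. Of the 53 that fell, 50 were lower and 40 passed (75.5%), 4.53% of the genes that fell with the empty vector. The median absolute log2 fold change over all genes was 0.0918 with TEL-AML1 and 0.131 with the empty vector. The interferon list had 35 higher genes with TEL-AML1 and 43 with the empty vector, with medians of 1.28 and 1.05. The ATF4 list had 6 lower genes with TEL-AML1 and 13 with the empty vector, with medians of -0.26 and -0.42, and the stromal list 0 and 36 higher genes, with medians of 0.56 and 1.10. The stromal level, the mean log2 value of the 48 genes, was 8.14 and 7.37 on the TEL-AML1 day 5 arrays and 8.39 and 8.05 on those of the empty vector. Counts past a threshold in each vector do not test a difference between them.

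**Figure D5:**
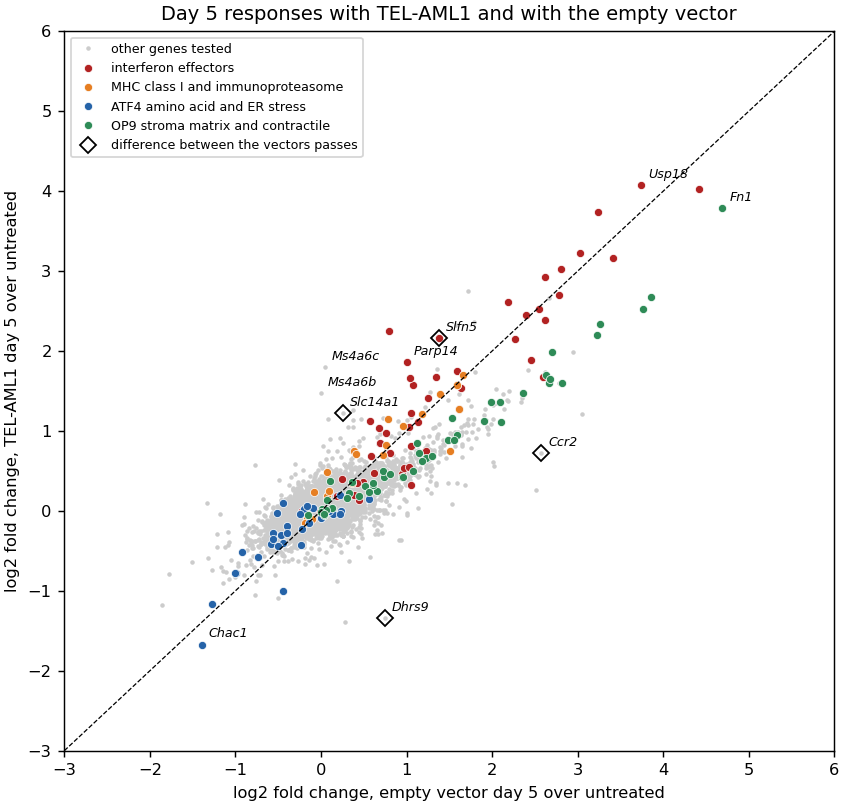
Each point is a gene, placed by its log2 fold change of day 5 over untreated cells with TEL-AML1 (y axis) and with the empty vector (x axis), with the dashed line at equality. Interferon (red), MHC class I (orange) and ATF4 genes (blue) lie near the line, stromal genes (green) mostly below it, and diamonds mark the 4 genes whose responses differed between the vectors.

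The difference itself was tested in the same model. Only 4 of 12345 genes passed (0.0324%), Ccr2, Dhrs9, Slc14a1 and Slfn5, and 946 had an unadjusted p under 0.05. A replicate block that pairs the vectors' same-numbered arrays of a condition gave 9, these 4 among them. Among interferon genes Slfn5 was the 1 of 51 that passed, and 10 had an unadjusted p under 0.05. Its response was larger with TEL-AML1, at 2.16, against 1.37 with the empty vector, where the arrays read 362 and 371 on day 5 and 130.2 and 133 untreated. Cmpk2 (2.25 with TEL-AML1, 0.79 with the empty vector, difference 1.46, adjusted p = 0.566) and Parp14 (1.86 with TEL-AML1, 1.00 with the empty vector, difference 0.86, adjusted p = 0.27) did not pass. In the MHC class I list, 0 of 20 differences passed by limma and 5 had an unadjusted p under 0.05. Tap2 was among the larger ones, at 0.75 with TEL-AML1 and 1.51 with the empty vector (difference -0.76, adjusted p = 0.212). In the ATF4 list, 0 of 32 passed by limma and 1 had an unadjusted p under 0.05.

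Some genes that rose with TEL-AML1 read below the intensity filter of 59.9 on the empty-vector arrays, untreated and day 5. Whether they changed within such dim signal cannot be read, and the difference of their responses did not pass that test. Ms4a6c and Tspan13 were tested only because TEL-AML1 arrays lifted their means, and Tspan13 was picked after its values were seen. Ms4a6c read 51.2 and 50.5 on the empty-vector day 5 arrays and 48.8 and 49.2 on the untreated ones, and its responses differed by 1.76 (adjusted p = 0.111). Tspan13, a tetraspanin, read 474 and 409.8 on the TEL-AML1 day 5 arrays, against 149.6 and 239 on the untreated ones, and 45.8 and 57.3 against 45.3 and 50.1 with the empty vector (difference 1.07, adjusted p = 0.566). Its own rise with TEL-AML1 passed (adjusted p = 0.0236), and ended without day 5 replicate 1 or untreated replicate 1 (up to 0.208). In the other direction, Dntt responded by 0.04 with TEL-AML1, where its arrays lay below the intensity filter. With the empty vector it responded by 0.91 and read 161 and 145 on day 5 against 74.3 and 73.5 untreated (difference -0.87, adjusted p = 0.59).

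At day 7 of the same treatment, against the same untreated arrays, the members gave the following values of their own. Because both comparisons use those arrays, no overlap between them is given. Usp18 differed from untreated cells by 4.07 at day 5 and 4.25 at day 7, Irf7 by 3.02 and 3.22, and Ifit1 by 3.16 and 3.63. Rsad2 stood at 1.11 at day 5 and 2.19 at day 7. Ifitm3 stood at 4.02 and 3.48. Among genes that fell, Chac1 differed by -1.67 at day 5 and -1.85 at day 7, and Mthfd2 by -0.77 and -1.32. The stromal level was 6.99 and 7.45 on the day 7 arrays, against 8.14 and 7.37 on the day 5 arrays, so that the levels of the 2 times overlapped.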

How the data were processed

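RNA of 12 arrays in 6 groups of 2 was measured, and groups and replicate numbers came from the sample titles. Per the labels' protocols, TRIzol-extracted RNA was turned into biotinylated cRNA for Affymetrix arrays. The deposited table holds 1 linear intensity per probe set and array for 35556 probe sets, from 15.2 to 7932; how the authors corrected background, summarised probes and normalized has no statement in those labels. Values were kept as deposited, since array medians lay within 0.0794 log2 units. An array has no read depth, and 2 arrays a group limit the precision.

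Of the probe sets, 21218 list 1 gene, 1881 several and 12457 none in the platform annotation, and only the first kind was named. Each of 18820 genes took its brightest probe set, and genes whose mean passed the 40th percentile (intensity 59.9) were tested. One limma 3.58.1 model (R 4.3.3) of 6 group means on log2(intensity + 16) gave all contrasts, with 6 residual and 4.23 prior degrees of freedom, and a median standard error of 0.0989. The script was tested on simulated data. Promoters were read from a RefSeq table on GRCm38.p6 and searched on both strands.

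The members and the 33 gene lists were chosen with earlier results of these data known. Named genes are the 20 highest and 20 lowest fold changes that passed without overlap, the same among genes whose day 5 arrays agree within 0.5 log2, up to 6 genes a list, differences between vectors that passed, and cell type markers. Other genes were picked after their values were seen, among them most named members of the interferon, MHC class I and ATF4 lists that did not pass. Alternatives changed the scaling, filter, pseudocount, probe sets, variance, weights, samples, replicate block and stromal covariate, and left out each array. Same-numbered arrays of the 2 compared groups deviated with a correlation of -0.195. With 1 replicate difference a group, this cannot settle whether the numbers pair them, and the labels do not say. Between the vectors the same correlation was 0.543 at day 5, 0.432 untreated and 0.378 at day 7.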

Additional observations from a re-analysis of the deposited data

Results flagged for a closer look

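For 4 genes the day 5 response differed between the vectors by the interaction test of limma. Ccr2, a chemokine receptor of monocytes, read 359 and 354 on the TEL-AML1 day 5 arrays, against 203 and 218 on the untreated ones, and 975 and 900.2 on the empty-vector day 5 arrays, against 139 and 149 on the untreated ones. It rose with both vectors, by 0.72 with TEL-AML1 and 2.57 with the empty vector (difference -1.85, adjusted p = 0.00119, up to 0.0191 without any 1 of the 8 arrays).

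Dhrs9 moved in opposite directions, by -1.35 with TEL-AML1 and 0.75 with the empty vector, where it read 154 and 124 on day 5, against 82.5 and 69.9 in untreated cells (difference -2.09, adjusted p = 0.0113, with the call ended without 5 of the 8 arrays, at up to 0.118). Its untreated TEL-AML1 arrays read 401 and 403.

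Slc14a1 responded by 1.22 with TEL-AML1 and 0.25 with the empty vector, where it read 1988 and 2044 on day 5, against 1719.6 and 1660.4 in untreated cells (difference 0.97, adjusted p = 0.0263). Slfn5 responded by 2.16 and 1.37 (difference 0.78, adjusted p = 0.028). Both differences ended without any 1 of the 8 arrays, with adjusted p up to 0.214 and 0.258. Groups of 2 are too small for a test of single outlying arrays.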

How the results depend on the processing

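With 2 arrays a group, the counts move with the arrays used. Of 12345 genes 197 passed for day 5 against untreated TEL-AML1 cells, and leaving out 1 array gave 79 to 290. The count was 468 with array weights, 89 with the stromal covariate and 180 with a replicate block over all arrays. With the replicate block within each condition it was 897, and the labels do not say which arrays belong together. With only those 2 groups, a crossed replicate block, added after seeing the data, gave 94 and the block as numbered 166. The split of higher against lower genes was 144 to 53, 127 to 62 with quantile normalization and 115 to 46 with arrays centred on their medians. The remaining alternatives gave 148 to 220 genes. Of 108 calls of named genes, leaving out day 5 replicate 1 ended 41 and replicate 2 ended 13, leaving out untreated replicates 1 and 2 ended 49 and 42, and the stromal covariate ended 45; quantile normalization and centring on medians ended 8 each, and no named gene that passed changed direction under any alternative run.

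The difference between the vectors' responses had 4 genes. It had 7 with array weights, 16 with only the compared groups, 9 with the replicate block within condition, 3 with the block over all arrays and 9 with the stromal covariate, and 1 to 4 without 1 array. The cause of these shifts was not tested. Dim genes are limited by background: a gene near 59.9 has folds that the offset of 16 shrinks.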
